A study of Homo sapiens with 6 samples.

Results

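The genes of oxidative phosphorylation were compared between SCC90 cells transfected with a control siRNA and with an siRNA against ΔNp63. Members were all protein-coding genes of the table whose symbol begins with NDUF, UQCR, ATP5 or COX followed by a digit, together with SDHA to SDHD and the SDHAF factors that share this prefix, CYC1, CYCS and the mitochondrial protein genes (MT-). The rule gave 126 of the 40488 rows, of which 113 are nuclear and 13 lie on the mitochondrial genome. SCC90 is an established HPV16-positive squamous carcinoma line of the base of the tongue. siCtrl names the 3 libraries given scrambled siRNA and siDNp63 the 3 libraries given ΔNp63 siRNA, with replicates 1 to 3 in each. All 6 came from the same line, transfected with Lipofectamine RNAiMAX and harvested at 72 h. The labels give 10 nM siRNA, while the study's methods state a higher dose. The labels do not say that the replicates were separate cultures, so the p-values reflect variation among the 6 libraries alone, which may be technical.

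The respiratory chain passes electrons from NADH through complex I, or from succinate through complex II, to ubiquinone, complex III, cytochrome c and complex IV, where oxygen is reduced. Complexes I, III and IV pump protons across the inner mitochondrial membrane, and complex V, the ATP synthase, uses their return to make ATP. Complex II is encoded by nuclear genes alone, whereas the other complexes combine nuclear subunits with subunits made inside the organelle from mitochondrial DNA, and assembly factors help to build them without staying in the finished enzyme.

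Libraries held 35716277 to 52598831 expected counts, the reads that the quantification assigned to each gene. Normalised counts are these after scaling between libraries by TMM, TPM are values per length that sum to the same total in each library, and calls rest on quasi-likelihood tests in edgeR, adjusted after Benjamini and Hochberg over all genes tested. TP63 itself was 1.52 lower on the log2 scale in siDNp63 (SE 0.04, edgeR adjusted p = 7.59e-07), with 43408 ± 976 (SD, n = 3) normalised counts in siCtrl and 15136 ± 576 (SD, n = 3) in siDNp63. The siDNp63 replicate 1 library stood apart, at 42.2 on the second principal component (20.8% of the variance) against −27.7 and −28.8 for the other siDNp63 libraries. Of all 17257 genes tested, 18.4% were called higher and 15.2% lower at an adjusted p under 0.05, so that 54.7% of the calls were higher, which became 36.1% when only library size was used for scaling in place of TMM. Epithelial markers (KRT5, KRT14, KRT17, EPCAM, CDH1 and TP63) summed to 1354 to 1397 TPM in siCtrl and 1522 to 1611 TPM in siDNp63. They did not move together. From siCtrl to siDNp63 the mean of TP63, the siRNA target, fell from 362 to 119 TPM and that of KRT5 from 7.08 to 5.43 TPM (not called). CDH1 rose from 478 to 711 TPM and EPCAM from 420 to 599 TPM, and KRT14 and KRT17 were also called higher. Leukocyte markers summed to 14.3 to 16.0 TPM in siCtrl and 11.7 to 12.6 TPM in siDNp63, and fibroblast markers to 8.72 to 10.8 and 5.82 to 9.11 TPM. Endothelial markers summed to 2.49 to 3.00 TPM in siCtrl and 11.1 to 13.5 TPM in siDNp63, through PECAM1, KDR and VWF, while CDH5 was under 1 TPM in every library. The part of these markers in the values below was not tested, and in such bulk libraries fewer cells of a type and less RNA per cell cannot be told apart.

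Most mitochondrial genes were called higher, while most nuclear subunits of the same enzymes were not called. Of the 13 mitochondrial genes 9 were called higher and 0 lower (2 and 1 when scaled by library size), with a median log2 fold change of 0.18, whereas of the 81 nuclear subunits tested 3 were called higher, 13 lower (16.0%, near the 15.2% of all genes) and 65 were not called, with a median of −0.06. The median of all genes tested was −0.02. DESeq2 and limma-voom also called 9 mitochondrial genes higher and 0 lower, and 0 were lower at an unadjusted p under 0.05. All changes were small: 0 of the 120 members tested passed a 2-fold change, against 4.06% of all genes. The 6 untested members were ATP5MGL, with 0 to 14.0 expected counts per library, and the tissue isoforms COX4I2, COX6A2, COX7A1, COX7B2 and COX8C.

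Counted over all tested members, 14 were called higher (11.7%, against 18.4% of all genes), 18 lower (15%, against 15.2%) and 88 were not called. The share called lower was near that of all genes. Every siDNp63 library was above every siCtrl library for 20 members and below for 33, that is 10 of the 13 mitochondrial genes above, and 10 of the 107 nuclear members above with 33 below, where 24.7% of all genes lay above and 24.7% below. Without siDNp63 replicate 1, 15 members were called higher and 25 lower, against 20.5% and 17.9% of the 17804 genes then tested, and the median was −0.02 for the nuclear subunits and −0.02 for all genes. The number called higher was 8, 9 and 7 without siCtrl replicate 1, 2 and 3 and 9 without siDNp63 replicate 2, and the number called lower was 10 without siCtrl replicate 1 and 10 without siDNp63 replicate 3. The share of all genes called in these leave-outs is not given here. These counts therefore cannot be read as a result about the members.

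**Figure D1:**
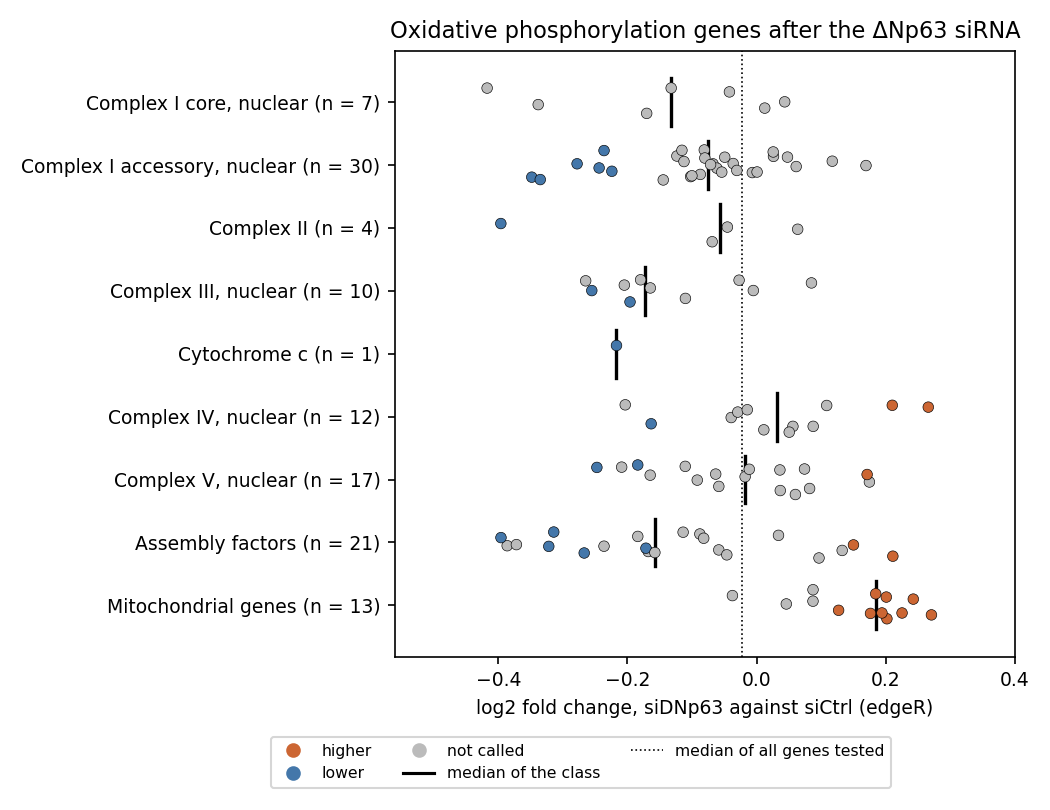
Log2 fold change of each tested member (x axis, siDNp63 against siCtrl) by class (y axis). Each point is 1 gene, coloured by its call at an adjusted p under 0.05, short bars are class medians and the dotted line is the median of all genes tested (−0.02). The isoform, inhibitor and readthrough genes are not drawn. The mitochondrial genes lie to the right (median 0.18), and the assembly factors (median −0.16) and complex III (median −0.17) to the left, the latter at −0.05 and the former at −0.15 without siDNp63 replicate 1.

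Nuclear genes of the chain are known to share binding motifs for NRF1, for the ETS factor GABPA and for YY1 near their start sites, so these letters were looked for on both strands of RefSeq promoter windows (GRCh38.p14, 250 bases before to 50 after the gene start). Windows were found for 91 of the 113 nuclear members. The NRF1 letters GCGCANGCG were in 28 of them (30.8%), in 13.9% of the 11606 tested genes that had a window and in 7.52% of all 35116 windows. The GABPA letters CCGGAAGT were in 14 (15.4%, against 8.05% and 4.14%) and the YY1 letters AAGATGGCG in 9 (9.89%, against 3.57% and 1.75%). Among members called lower, 5 of 17 (29.4%) held the NRF1 letters, and among those not called 21 of 68 (30.9%). A match describes the letters only. The stretches below, 30 bases each, are shown for 5 members called lower and for ATP5PO, called higher, with the match in capitals on the strand of the gene. Read from the other strand the GABPA letters appear as ACTTCCGG, and the NRF1 letters of UQCRC1 and ATP5PO are likewise from the other strand.
SDHD NRF1, chr11:112086753-112086782, plus strand: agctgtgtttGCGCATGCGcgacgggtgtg
SDHD GABPA, chr11:112086784-112086813, plus strand: accgcctctcgACTTCCGGttcacccagca
UQCRH GABPA, chr1:46303640-46303669, plus strand: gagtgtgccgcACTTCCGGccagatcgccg
UQCRC1 NRF1, chr3:48609673-48609702, minus strand: tacggtactgCGCCTGCGCcgcgaccgcca
ATP5PF YY1, chr21:25735092-25735121, minus strand: aggcgaagaaAAGATGGCGgaggctgtgcc
COX18 NRF1, chr4:73069744-73069773, minus strand: gcaggcaggcGCGCATGCGctttatgcccg
ATP5PO NRF1, chr21:33915808-33915837, minus strand: cgccaacgcgCGCGTGCGCccttgcgcgtt

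The level of the chain's transcripts was set first by genome. In siCtrl the 13 mitochondrial genes had a median of 5654 TPM, from 1967 for MT-ATP8 to 12270 for MT-CO2, and together they took 8.14%, 8.44% and 8.45% of all TPM. Medians of the nuclear classes were lower, at 546 TPM for complex IV, 340 for CYCS, 307 for complex V, 217 for complex III, 158 for complex II, 119 for complex I and 30.4 for the assembly factors. The highest nuclear members per length were COX6C (1506 TPM) and ATP5F1B, the catalytic beta subunit of ATP synthase (1464 TPM), which overlapped between libraries, then COX7C (1153 TPM) and NDUFA4 (1071 TPM), which is named for complex I but sits in complex IV.

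Within complex I, 0 of the 37 nuclear subunits were called higher by edgeR and 6 lower (16.2%, near the 15.2% of all genes). At an unadjusted p under 0.05, 1 was higher, and DESeq2 and limma-voom called 0 higher. Without siDNp63 replicate 1, edgeR called 1 higher (NDUFC2, 0.26, edgeR adjusted p = 0.037) and 10 lower. The 6 called lower with all libraries were among the 30 accessory subunits, which surround the catalytic core. NDUFB5 (ENSG00000136521, chr3:179604690-179627647), a subunit of the membrane arm, had 5075, 5111 and 5260 normalised counts in siCtrl and 4195, 4348 and 4193 in siDNp63. Every siDNp63 library was thus under every siCtrl library, and the log2 fold change was −0.28 (SE 0.04, edgeR adjusted p = 0.000811). NDUFV3, a small subunit of the NADH-oxidising module, fell from 1695, 1837 and 1764 to 1400, 1458 and 1339 normalised counts, and again the groups did not overlap. Its log2 fold change was −0.34 (SE 0.05, edgeR adjusted p = 0.00212). NDUFA5, a subunit of the arm in the matrix, fell by 0.22 on the log2 scale (SE 0.04, edgeR adjusted p = 0.00287), from 4010 ± 52.4 to 3433 ± 106 normalised counts (SD, n = 3 each).

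The other complex I subunits called lower were NDUFC1 (−0.35), NDUFA1 (−0.24) and NDUFB3 (−0.24, log2), with edgeR adjusted p = 0.032, 0.0136 and 0.0347. NDUFC1 and NDUFB3 were not called with transcript length offsets. Calls were also lost without 1 library, NDUFA1 without siDNp63 replicate 3, and NDUFC1 and NDUFB3 each without siCtrl replicate 1 or 3 or siDNp63 replicate 2 or 3. The 7 nuclear core subunits, which carry the flavin and the iron-sulphur clusters, gave 0 calls by edgeR in either direction, with 4 lower at an unadjusted p under 0.05, and DESeq2 called 3 lower and limma-voom 0. In 4 of them every siDNp63 library was under every siCtrl library. NDUFS7, which holds the last iron-sulphur cluster before ubiquinone, had 392, 389 and 373 normalised counts in siCtrl and 224, 338 and 299 in siDNp63 (log2 fold change −0.42, SE 0.15, edgeR adjusted p = 0.0593). NDUFV1, which binds NADH, had 1456, 1398 and 1323 against 860, 1178 and 1256 (−0.34, SE 0.13, edgeR adjusted p = 0.0779). In NDUFS7 and NDUFV1 the lowest value was that of siDNp63 replicate 1, and without this library NDUFS7 (−0.27), NDUFV1 (−0.19) and NDUFS3 (−0.21) were called lower, with edgeR adjusted p = 0.046, 0.031 and 0.029.

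Several members were lower in siDNp63 replicate 1 than in the other siDNp63 libraries. NDUFB7 had 157 normalised counts there but 380 and 370 in the other siDNp63 libraries and 318 to 339 in siCtrl. In all, 7 tested members were more than 1.5-fold under both other siDNp63 libraries in replicate 1 and 0 were more than 1.5-fold over them. The 7 were NDUFB7, NDUFA6, NDUFA11, NDUFA3, ATP5F1D and the readthrough genes ATP5MF-PTCD1 and NDUFC2-KCTD14, and none was called in the full comparison. The share of all genes that differed so was not counted, so whether this is more common among the members than among other genes is not known. NDUFC2-KCTD14, at 34.6 normalised counts in siDNp63 replicate 1, lay within its siCtrl range of 33.3 to 61.6. NDUFA6 was also low in 1 control library, with 515 normalised counts in siCtrl replicate 2 against 943 and 912.

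Complex II consists of the flavoprotein SDHA, the iron-sulphur protein SDHB and the membrane anchors SDHC and SDHD, and 1 of the 4, SDHD, was called lower. SDHD (ENSG00000204370, chr11:112086824-112120016), whose promoter letters are printed above, had 4038, 4210 and 4275 normalised counts in siCtrl. In siDNp63 it had 3161, 3135 and 3219, so that the groups stood well apart. The log2 fold change was −0.40 (SE 0.04, 95% interval −0.47 to −0.32), with an edgeR adjusted p = 0.000158, the smallest among the 120 members tested. The other subunits overlapped between groups. SDHC, the partner of SDHD in the membrane, had a log2 fold change of −0.07 (95% interval −0.15 to 0.01), SDHA −0.05 (−0.17 to 0.08) and SDHB 0.06 (−0.03 to 0.16).

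In complex III, 2 of the 10 nuclear subunits were called lower (20%, against 15.2% of all genes) and 0 higher. By DESeq2, limma-voom or an unadjusted p under 0.05 in edgeR 0 were higher. UQCRH (ENSG00000173660, chr1:46303698-46316776), the hinge protein that bridges cytochrome c1 and cytochrome c, had 6264, 6360 and 6382 normalised counts in siCtrl and 5492, 5592 and 5507 in siDNp63 (log2 fold change −0.20, SE 0.03, edgeR adjusted p = 0.00304). The groups were separate, although reads of UQCRH and its near-identical copy UQCRHL cannot be divided with certainty, and UQCRHL itself ranged from 628 to 1301 normalised counts within siCtrl. UQCRC1, a core protein of the matrix side, had 6411, 6855 and 6741 against 5053, 6064 and 5634 (−0.26, SE 0.07, edgeR adjusted p = 0.0207), and it was not called without siCtrl replicate 1, 2 or 3 or siDNp63 replicate 3. UQCRFS1, the Rieske iron-sulphur protein, overlapped between groups at 0.09 (95% interval 0.00 to 0.17, edgeR adjusted p = 0.157).

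CYCS, the somatic cytochrome c (ENSG00000172115, chr7:25118656-25125260), carries electrons from complex III to complex IV. It had 9839, 10288 and 10355 normalised counts in siCtrl and 8605, 8831 and 8787 in siDNp63, again without overlap. The log2 fold change was −0.22 (SE 0.04, edgeR adjusted p = 0.00298).

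Complex IV, cytochrome c oxidase, held 2 of the 3 nuclear subunits called higher. Of its 12 nuclear subunits 2 were called higher (16.7%, against 18.4% of all genes) and 1 lower (8.33%, against 15.2%). COX5A (ENSG00000178741, chr15:74919791-74938083) had 3819, 3464 and 3527 normalised counts in siCtrl and 4591, 4467 and 3951 in siDNp63, a log2 fold change of 0.27 (SE 0.07, edgeR adjusted p = 0.0158). COX6C, a small membrane subunit, had 12555, 11137 and 12121 against 14175, 14247 and 13016 (0.21, SE 0.06, edgeR adjusted p = 0.0238). Both sets were above the controls in every library by normalised counts. In TPM COX5A overlapped, with 346.1 in siCtrl replicate 1 and 339.8 in siDNp63 replicate 3. COX7B, another small membrane subunit, moved the other way, with 5204, 5054 and 5050 against 4674, 4664 and 4335 (−0.16, SE 0.04, edgeR adjusted p = 0.0201). COX5A was not called without siCtrl replicate 2 or 3, COX6C without siCtrl replicate 2 or 3 or siDNp63 replicate 2, and COX7B without siCtrl replicate 1 or siDNp63 replicate 3. With library size scaling and on log2(TPM + 1), COX5A and COX6C were not called either.

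Several complex IV subunits have a second isoform made in particular tissues, such as muscle, lung or testis. COX4I2, COX7B2 and COX8C had 0 expected counts in every library, and COX6A2 and COX7A1 were too low for testing, whereas the ubiquitous COX4I1, COX6A1, COX7A2 and COX8A stood at 622, 431, 621 and 158 TPM in siCtrl. COX6B2 and NDUFA4L2 were tested at 0.866 and 0.908 TPM and were not called, with edgeR adjusted p = 0.404 and 0.822.

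In complex V, 1 of the 17 nuclear subunits tested was called higher (5.88%, against 18.4% of all genes) and 2 lower (11.8%, against 15.2%). ATP5PF, coupling factor 6 of the stalk, had 3142, 3103 and 3189 normalised counts in siCtrl and 2594, 2867 and 2483 in siDNp63 (log2 fold change −0.25, SE 0.06, edgeR adjusted p = 0.0112). ATP5PO, the stalk subunit that confers sensitivity to oligomycin, had 4327, 4738 and 4553 against 5040, 5400 and 4890 (0.17, SE 0.05, edgeR adjusted p = 0.0375). By normalised counts these neighbours in the stalk therefore lay on opposite sides of the controls, each without overlap. In TPM the groups overlapped for ATP5PO, at 263.4, 291.5 and 276.5 in siCtrl and 297.7, 311.4 and 290.8 in siDNp63. ATP5PF was not called without siCtrl replicate 3, and ATP5PO was not called without siCtrl replicate 1, 2 or 3 or siDNp63 replicate 2. ATP5PO was also not called with library size scaling, with transcript length offsets or on the TPM scale.

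ATP5MC1, ATP5MC2 and ATP5MC3 encode the same mature protein of the proton-turned ring, and of these only ATP5MC1 was called (−0.18, SE 0.05, edgeR adjusted p = 0.0247). ATP5MC1 was not called without siCtrl replicate 1, 2 or 3 or siDNp63 replicate 3, ATP5MC2 was at 0.04 and ATP5MC3 at −0.09, and a difference among them was not tested. The catalytic subunits were not called. ATP5F1A, the alpha subunit, was at 0.07 (95% interval 0.01 to 0.14) and ATP5F1B at −0.06 (−0.13 to 0.02), with edgeR adjusted p = 0.148 and 0.276. The interval of ATP5F1A leaves out 0 although its unadjusted edgeR p was 0.0697, since the normal interval is narrower than the test. ATP5IF1, the protein that inhibits reverse action of the synthase, had 1342, 1242 and 1175 normalised counts in siCtrl and 1030, 1154 and 1118 in siDNp63 (−0.19, SE 0.07, edgeR adjusted p = 0.0749), and its values were identical to those of 1 further row of the table.

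**Figure D2:**
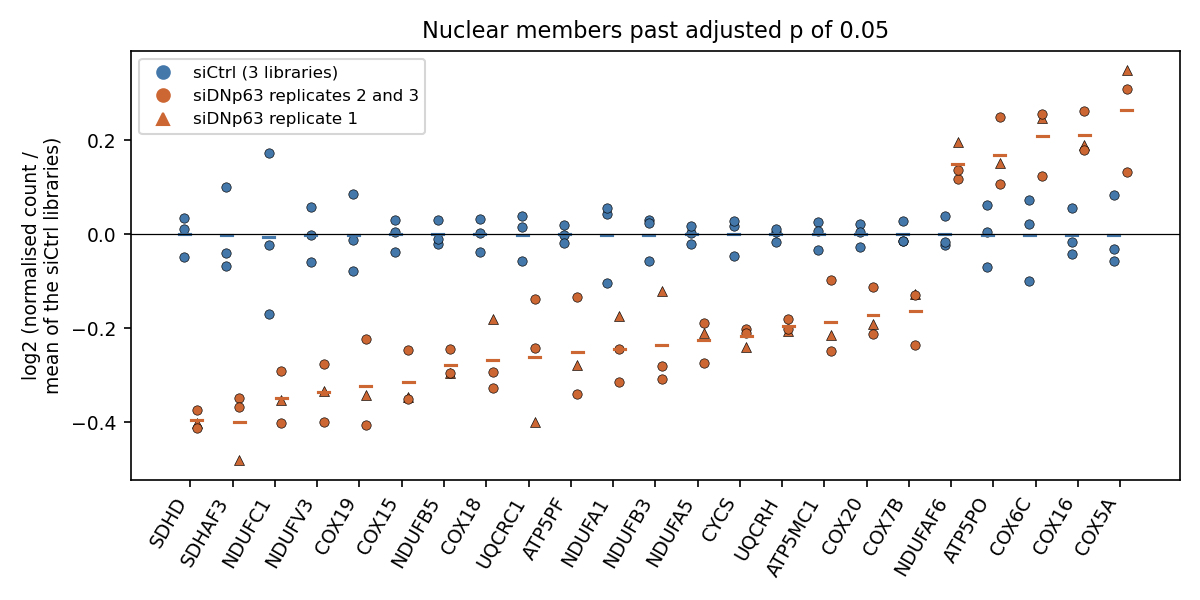
The 23 nuclear members called in the comparison (x axis, ordered by fold change), with log2 of the normalised count over the mean of the siCtrl libraries (y axis) in each library. Circles and triangles are libraries, with siDNp63 replicate 1 as the triangle, and short bars are group means. SDHD at the left was lower by 0.40 and COX5A at the right higher by 0.27 on the log2 scale.

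Of the 21 assembly factors, 2 were called higher (9.52%, against 18.4% of all genes) and 5 lower (23.8%, against 15.2%). Their median log2 fold change was −0.16. Of the 5 that were lower, 4 act on complex IV, as do COX16, called higher, and several factors that were not called. COX15, which makes haem A, had 1532, 1560 and 1488 normalised counts in siCtrl and 1200, 1197 and 1287 in siDNp63 (−0.31, SE 0.05, edgeR adjusted p = 0.00231), with no overlap. COX10, the enzyme of the preceding step, was not called and lay on the other side (0.13, SE 0.06, edgeR adjusted p = 0.113). COX19, a factor of copper delivery (−0.32), COX18, which inserts a mitochondrially made subunit into the membrane (−0.27), and COX20, a chaperone of that subunit (−0.17), were called lower with edgeR adjusted p = 0.0111, 0.0207 and 0.0175.

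SDHAF3, an assembly factor for the iron-sulphur subunit of complex II, had 788, 803 and 885 normalised counts in siCtrl and 591, 648 and 640 in siDNp63. The groups did not overlap, and the log2 fold change was −0.40 (SE 0.07, edgeR adjusted p = 0.00469). The factors called higher were COX16, which acts on a copper-bearing subunit of complex IV (0.21, SE 0.05, edgeR adjusted p = 0.0157) and NDUFAF6, a complex I factor (0.15, SE 0.05, edgeR adjusted p = 0.044). COX16 was not called without siCtrl replicate 1 or 3 or siDNp63 replicate 3, NDUFAF6 without any library except siDNp63 replicate 1, COX18 without siCtrl replicate 1 or 3 or siDNp63 replicate 2 or 3, COX19 without siCtrl replicate 1, and COX20 without siCtrl replicate 1 or 2 or siDNp63 replicate 3.

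Across the nuclear members called lower, 8 of 18 kept the call without each library in turn and under every other setting tried, namely SDHD, NDUFB5, NDUFV3, NDUFA5, UQCRH, CYCS, COX15 and SDHAF3. With transcript length offsets ATP5MC1, NDUFC1, NDUFB3, UQCRC1, COX18, COX19 and COX20 were not called, and on the TPM scale UQCRC1, COX18, COX19 and COX20 were not. Of the 14 members called higher, 1 kept its call throughout, MT-CYB. The share of all called genes that kept their calls in this way was not counted.

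Summed over each complex and scaled by TMM, normalised counts of nuclear subunits in siDNp63 lay below those of siCtrl in complexes I, II and III and overlapped in complexes IV and V. The 37 complex I subunits summed to 75893, 74116 and 76716 in siCtrl and 67382, 73997 and 69802 in siDNp63, a mean change of −6.86%. Complex II changed by −6.50%, complex III by −7.49%, complex IV by 4.38% and complex V by −0.24%. Without siDNp63 replicate 1 these changes were −4.86%, −6.11%, −5.86%, 4.89% and −0.30%, and the 21 assembly factors were at −6.72% with it and −7.01% without it. As a share of all counts, without TMM, complex V was at 0.267%, 0.269% and 0.270% in siCtrl and 0.250%, 0.263% and 0.244% in siDNp63, with no overlap. The mean of complex IV then turned in sign, from 0.150% of counts in siCtrl to 0.147% in siDNp63, with overlap, and from 0.720% to 0.705% of TPM. These sums are scores over members and were given no test.

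The 13 mitochondrial genes all stem from long transcripts of the circular genome that are cut into single messages. MT-CYB, the cytochrome b of complex III and the sole member of that complex encoded there (chrM:14747-15887), had 112671, 119471 and 118381 normalised counts in siCtrl. In siDNp63 it had 141009, 145867 and 136066, every value above the controls. The log2 fold change was 0.27 (SE 0.04, edgeR adjusted p = 0.00102), which was the smallest p among the mitochondrial genes. No nuclear subunit of complex III was called in that direction.

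All 7 mitochondrial subunits of complex I, which form its proton-pumping membrane core, were above the controls in every siDNp63 library by normalised counts. Of the 7, 6 were called higher. In TPM, MT-ND1 and MT-ND3 overlapped between groups. MT-ND4 had 219350, 238100 and 236732 normalised counts in siCtrl and 267849, 270931 and 259706 in siDNp63 (0.20, SE 0.04, edgeR adjusted p = 0.00462). MT-ND5 had 141977, 135293 and 146448 against 171201, 156457 and 159420 (0.20, SE 0.04, edgeR adjusted p = 0.00989), and MT-ND2 had 84742, 90068 and 90709 against 101640, 102479 and 95964 (0.18, SE 0.04, edgeR adjusted p = 0.0112). The remaining calls were MT-ND6 (0.24), MT-ND3 (0.23) and MT-ND4L (0.19), with edgeR adjusted p = 0.0158, 0.0218 and 0.0196. MT-ND1 was at 0.09 (SE 0.04) and was not called (edgeR adjusted p = 0.15). None of the 37 nuclear subunits of this complex was called higher with all libraries, and 1, NDUFC2, was called higher without siDNp63 replicate 1.

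The mitochondrial subunits of complex IV, which hold its copper and haem centres, gave 1 call among 3. MT-CO2 had 163249, 177269 and 172091 normalised counts in siCtrl and 187806, 190194 and 181833 in siDNp63 (0.13, SE 0.04, edgeR adjusted p = 0.0313). MT-CO1 had 345145, 374268 and 381426 against 363693, 358503 and 350533, and MT-CO3 192640, 204607 and 206105 against 205704, 214917 and 202330. The last pair overlapped between groups, with log2 fold changes of −0.04 (95% interval −0.12 to 0.04) and 0.05 (−0.03 to 0.12). In complex V, MT-ATP6 rose by 0.18 (SE 0.04, edgeR adjusted p = 0.00824), from 122109 ± 5654 to 138775 ± 2761 normalised counts (SD, n = 3 each). MT-ATP8 was at 0.09 with a wide error (SE 0.15, edgeR adjusted p = 0.687).

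These calls depended on the scaling. With library size in place of TMM the mitochondrial median was 0.10, 2 genes were called higher (MT-CYB and MT-ND4) and MT-CO1 was called lower at −0.12 (edgeR adjusted p = 0.0245), and on log2(TPM + 1) with limma the median was 0.11 and MT-CYB alone was called. In each leave-out 6 to 9 were called higher, with MT-CO2 and MT-ND3 lost without siCtrl replicate 1 or 3 or siDNp63 replicate 2, and MT-ND4L without siCtrl replicate 1 or 2. Messages of the opposite strand at MT-ND6 cannot be told apart in these counts, since the quantification was run without a strand option. On the same strand, MT-ATP8 and MT-ATP6 share bases 8527 to 8572, and MT-ND4L and MT-ND4 share bases 10760 to 10766. Reads in these short overlaps cannot be divided with certainty.

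**Figure D3:**
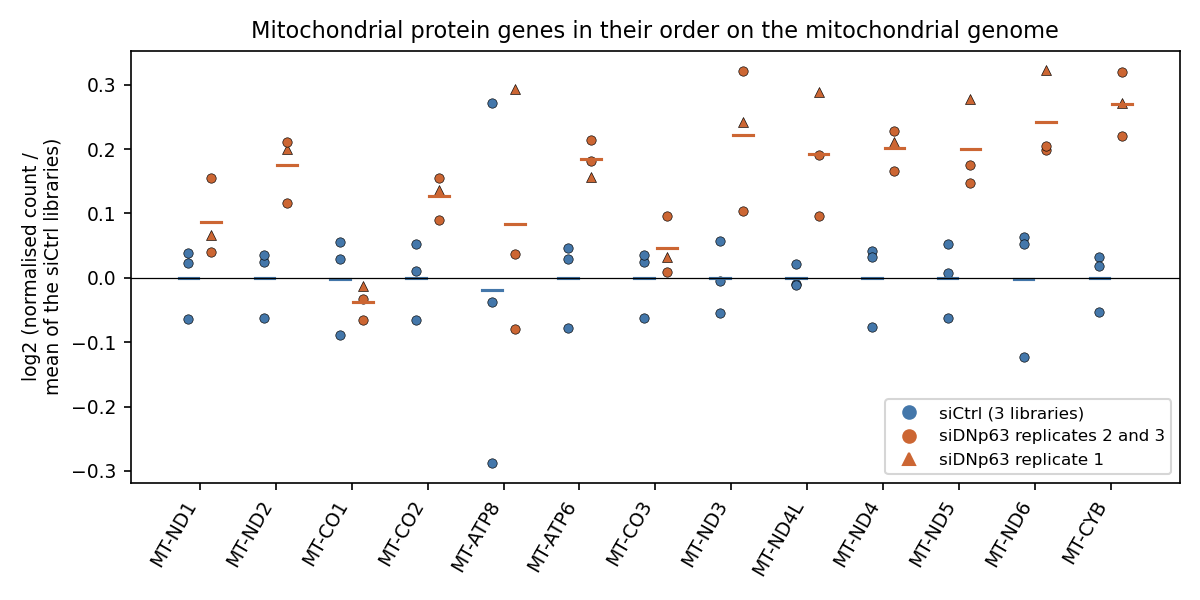
Log2 of the normalised count over the mean of the siCtrl libraries (y axis) for the 13 mitochondrial genes in genome order (x axis). Symbols are libraries, the triangle is siDNp63 replicate 1, and bars are group means. The 7 complex I genes (MT-ND), MT-CYB, MT-CO2 and MT-ATP6 stand above the controls in every siDNp63 library, and MT-CO1, MT-CO3 and MT-ATP8 overlap with them.

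Fold changes were larger toward the end of the genome's coding stretch. MT-ND1, the first gene after the ribosomal RNAs, was at 0.09, and MT-CYB, which begins 11440 bases further on, was at 0.27. Across the 13 genes the log2 fold change and the distance from MT-ND1 had a Pearson r of 0.67 and a Spearman rho of 0.80, and across the 12 genes of the heavy strand 0.63 and 0.74. Genes that share a transcript, libraries and overlapping reads are not independent points, so these are descriptions with no test. The trend was uneven, as MT-ND2 (0.18) is near the start and MT-CO3 (0.05) lies in the middle.

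**Figure D4:**
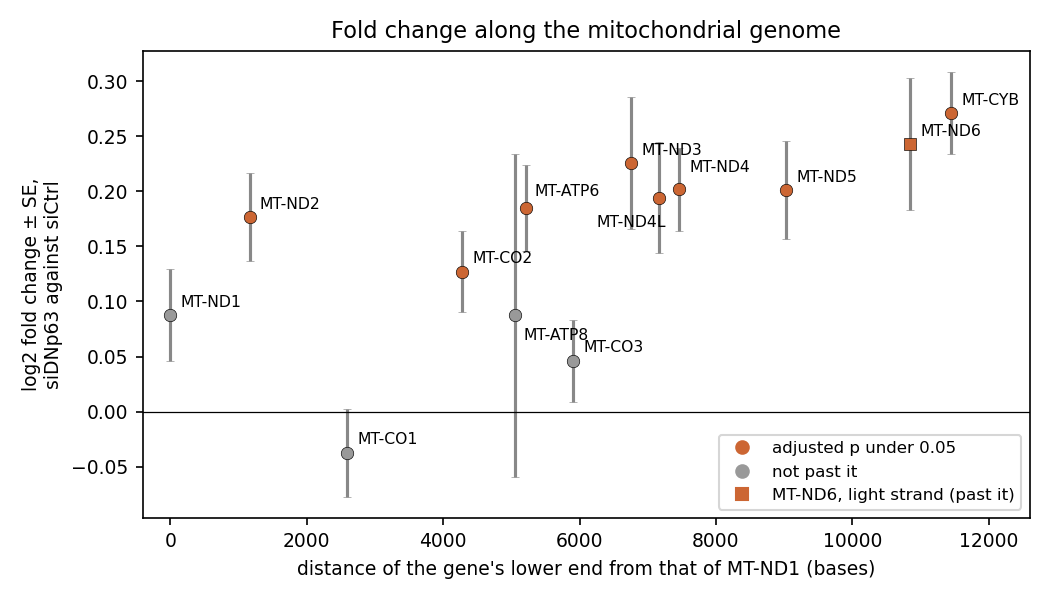
Log2 fold change with its SE (y axis) against the distance of each mitochondrial gene's lower end from that of MT-ND1 in bases (x axis). Coloured points passed an adjusted p of 0.05 and the square is MT-ND6 on the light strand. Values run from −0.04 for MT-CO1 to 0.27 for MT-CYB at 11440 bases.

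By level per length, the order in siCtrl ran from MT-CO2 (12270 TPM) and MT-CO3 (11973 TPM) through MT-CO1 (9515 TPM) and MT-ND4L (9395 TPM) to MT-ND6 (2444 TPM) and MT-ATP8 (1967 TPM). MT-CO2 and MT-CO3 overlapped between their 3 libraries, as did MT-CO1 with MT-ND4L, MT-ND2 with MT-ND3, and MT-ND6 with MT-ATP8. Messages of complex IV thus headed the list, with log2 fold changes of −0.04 to 0.13. Rows for nuclear copies of mitochondrial genes held 1.80% to 1.94% as many counts as the mitochondrial genes themselves, a range in which the groups overlapped.

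The balance between the genomes was compared in each library as the sum over the mitochondrial genes divided by the sum over the 82 nuclear subunits. In expected counts it was 4.70, 5.04 and 4.96 in siCtrl and 5.61, 5.32 and 5.47 in siDNp63. In TPM it was 3.39, 3.49 and 3.46 against 4.00, 3.74 and 3.84. On both scales every siDNp63 library was above every siCtrl library, and the ratio does not depend on library scaling. The mitochondrial share of all counts, by contrast, overlapped between groups, at 3.69%, 3.88% and 3.89% in siCtrl and 3.90%, 3.99% and 3.83% in siDNp63, while the share of the nuclear subunits was 0.785%, 0.771% and 0.785% against 0.696%, 0.749% and 0.701%, without overlap. As a share of TPM the mitochondrial genes took 8.14% to 8.45% in siCtrl and 8.56% to 8.82% in siDNp63.

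**Figure D5:**
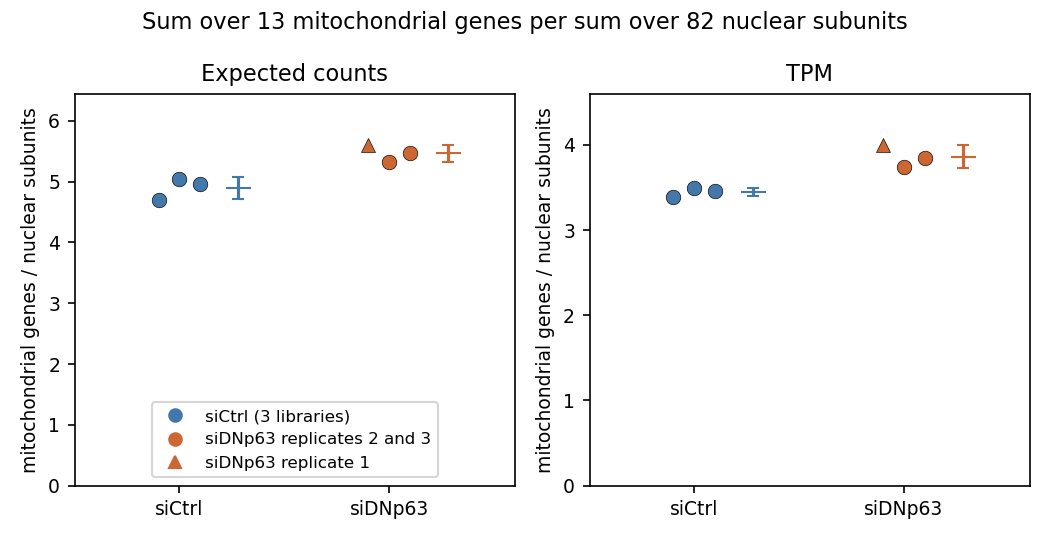
Sum over 13 mitochondrial genes divided by the sum over 82 nuclear subunits (y axis, from 0) in each siCtrl and siDNp63 library (x axis), in expected counts at the left and TPM at the right. Bars beside the points are mean ± SD (n = 3). The siDNp63 libraries, from 5.32 in counts and 3.74 in TPM upwards, are all above the siCtrl libraries.

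Other mitochondrial genes were counted from lists chosen by function. Percentages give the share of each list called higher and then lower, where 18.4% and 15.2% of all genes were called. Among 13 regulators of mitochondrial biogenesis 3 were called higher and 6 lower (23.1% and 46.2%). MYC, a transcription factor that drives growth genes, was at −0.86 (SE 0.06, edgeR adjusted p = 3.46e-05), the nuclear receptor ESRRG at −1.40 (SE 0.15, edgeR adjusted p = 0.00033) and the coactivator PPARGC1B at −0.46 (SE 0.05, edgeR adjusted p = 0.000491). Each of these was lower in every siDNp63 library. Of 34 genes for upkeep of mitochondrial DNA and processing of its RNA 1 was called higher and 2 lower (2.94% and 5.88%, both under the shares of all genes). Without siDNp63 replicate 1 these counts were 2 and 5. GRSF1, an RNA-binding protein of mitochondrial RNA granules, was at 0.20 (edgeR adjusted p = 0.0073, not called on the TPM scale). FASTKD1, another RNA-binding protein, and DGUOK, a kinase that supplies DNA precursors, were both at −0.27 (edgeR adjusted p = 0.0134 and 0.0284). FASTKD1 was not called without siDNp63 replicate 3, and DGUOK without siCtrl replicate 1, 2 or 3 or siDNp63 replicate 3.

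Of 38 assembly factors outside the naming rule, 5 were called higher and 9 lower (13.2% and 23.7%, against 18.4% and 15.2% of all genes). TMEM70, which assists the ring of ATP synthase, was at 0.62 (SE 0.05, edgeR adjusted p = 6.24e-05) and HIGD1A, a complex IV factor, at 0.39, while LYRM7, which helps to insert the Rieske protein, was at −0.63 (SE 0.09, edgeR adjusted p = 0.00143). LYRM7 was not called with transcript length offsets or on the TPM scale. Of 78 proteins of the mitochondrial ribosome, which translates the 13 messages, 7 were called higher and 9 lower with a median of −0.02. These shares, 8.97% and 11.5%, were under those of all genes. Examples were MRPL42 (−0.35), MRPS25 (−0.31) and MRPS6 (0.33).

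In the citric acid cycle with pyruvate dehydrogenase, which supply NADH and succinate, 2 of 19 were called higher and 5 lower. These were 10.5% and 26.3%, against 18.4% and 15.2% of all genes, and 4 were higher without siDNp63 replicate 1. Among those lower were fumarate hydratase FH (−0.18) and the isocitrate and malate dehydrogenases IDH2 (−0.32) and MDH2 (−0.36). IDH2 was not called without siCtrl replicate 1 or 3, and MDH2 without siCtrl replicate 1, 2 or 3. Ubiquinone synthesis had 1 of 13 higher (7.69%) and 4 lower (30.8%). COQ2 was at 0.36, and those lower included COQ4 (−0.28) and COQ3 (−0.26). Neither COQ4 nor COQ3 was called with transcript length offsets, nor COQ3 without siCtrl replicate 1 or 2 or siDNp63 replicate 3. Among 9 antioxidant enzymes 4 were called lower (44.4%) and 0 higher (0 also by DESeq2, limma-voom and an unadjusted p under 0.05 in edgeR). The 3 of smallest p were thioredoxin TXN2 (−0.23), glutaredoxin GLRX2 (−0.27) and peroxiredoxin PRDX5 (−0.21). GLRX2 was not called without siCtrl replicate 2 or siDNp63 replicate 2 or 3 and PRDX5 without siCtrl replicate 1, 2 or 3 or siDNp63 replicate 3 or with transcript length offsets, and GLRX2 changed sign on the log2(TPM + 1) scale (0.015).

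Of 30 import proteins and chaperones 3 were called higher and 3 lower (10% and 10%, under the 18.4% and 15.2% of all genes). TIMM17A, a channel subunit of the inner membrane, was at 0.74 (SE 0.04, edgeR adjusted p = 8.77e-06), with 3257, 3418 and 3418 normalised counts in siCtrl and 5714, 5596 and 5527 in siDNp63. The receptor TOMM20 was at −0.26 and TOMM7 at −0.36, both in the outer membrane, and TOMM20 but not TOMM7 lost its call with transcript length offsets and on the TPM scale. Carriers and uncoupling proteins gave 4 of 9 higher (44.4%) and 0 lower by edgeR (2 lower at an unadjusted p under 0.05, 2 by DESeq2 and 1 by limma-voom). Those higher included the outer-membrane channels VDAC2 (0.54) and VDAC3 (0.26) and the uncoupling protein UCP2 (0.50). VDAC3 and UCP2 were not called on the TPM scale. Of 8 genes of cristae organisation 1 was called higher (12.5%), CHCHD3 (0.52), and 0 lower (0 also by DESeq2, limma-voom and an unadjusted p under 0.05 in edgeR). Without siDNp63 replicate 1 edgeR called 2 higher and 1 lower.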

How the data were processed

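Messenger RNA of the 6 libraries was selected by poly(A), prepared with a stranded kit and read as single 50-base ends. The authors estimated expected counts and TPM with kallisto 0.46.2 on hg38 (annotation release not given in the sources used here), after bcl2fastq 2.17.1.14. The deposited table holds both, and 35538 of 40488 rows were matched to GENCODE v44. Members and lists were chosen with earlier results of these data known. Expected counts were rounded, filtered (filterByExpr, minimum count 10), scaled by TMM and tested with edgeR 4.0.16 (R 4.3.3) quasi-likelihood, Benjamini-Hochberg over 17257 genes, and called at an adjusted p under 0.05. Normalised counts are counts scaled to the mean effective library size, and 95% intervals were taken from the SE with a normal distribution. With 6 libraries such intervals are too narrow, so an interval can leave out 0 where the edgeR test does not pass. Pairs of libraries within a group differed by more than counting noise. DESeq2 1.42.0 and limma 3.58.1 served as alternatives. The code was tested on simulated data. Named genes were all mitochondrial members, the 3 of smallest p in each nuclear class and list, the 5 assembly factors of smallest p, isoforms, the inhibitor, and the 3 highest and lowest fold changes with a mean of at least 50 counts. Others named were chosen after their values were seen. A gene that this rule names is not reported here.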

Additional observations from a re-analysis of the deposited data

How the results depend on the processing

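Alternatives were another tool, scaling, filter or scale, and leaving out each library. With library size scaling 2 members were called higher and 38 lower, where calls over all 17257 genes moved from 3177 higher and 2626 lower to 2330 and 4117. Medians were then −0.15 for nuclear subunits, −0.11 for all genes and 0.10 for mitochondrial genes, of which 2 were called higher and 1 lower. For the other settings the share of all genes called is not given here, except without siDNp63 replicate 1 (20.5% higher and 17.9% lower). Limma on log2(TPM + 1) and on log2(TPM + 0.1) each called 1 member higher, a mitochondrial one, with medians of −0.12 and −0.13 for nuclear subunits and 0.11 and 0.11 for mitochondrial genes. With mitochondrial genes left out, 5 members were called higher, and with transcript length offsets 11 were called lower. Leaving out 1 library gave 7 to 15 members called higher and 10 to 25 lower, 6 to 9 mitochondrial genes higher and 0 lower, medians of −0.11 to −0.02 for nuclear subunits and 0.16 to 0.21 for mitochondrial genes, and a difference in the mitochondrial share of counts of 0.0224 to 0.125 percentage points around 0.0883 with all libraries. That difference was 0.353 points of TPM and 1.5 points of the counts of nuclear subunits and mitochondrial genes. The log2 fold change of GLRX2 reversed to 0.081 with transcript length offsets and to 0.015 on both TPM scales. The cause was not tested. DESeq2, limma-voom, DESeq2 size factors and both count filters kept the counts of calls within 1.5-fold and moved the medians by less than the spread between replicates.

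The replicate numbers did not pair the libraries: libraries of the same number had correlations of −0.01, 0.02 and 0.03 in their deviations from the group means. A replicate block gave 11 members higher and 16 lower and 8 mitochondrial genes higher, with medians of −0.07 and 0.19. Among named genes COX16, MT-CO2, NDUFAF6, NDUFB3, NDUFC1 and DGUOK were not called under the block. Where 1 library was left out, its group held 2 libraries. Of the tissue isoforms of complex IV 5 had too few counts to test.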
